A study of Caenorhabditis elegans with 4 samples.

Results

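The regions described here are the REC-8 peaks on both arms of chromosome V of Caenorhabditis elegans. They are 441 of the 5893 peaks in the authors' combined list, chosen by position alone. A peak belonged to the left arm when its midpoint lay before 5.9 Mb, and to the right arm when it lay beyond 16.55 Mb (WS220). The left arm, 5.9 Mb long, held 217 peaks and the right arm, 4.37 Mb long, held 224, while the 10.65 Mb centre between them held 575.

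The peaks come from chromatin immunoprecipitation followed by sequencing (ChIP-seq) of fem-2(b245)III hermaphrodites kept at 20 degrees Celsius, labelled as young adults that contain a germline. Of 4 libraries, 2 were REC-8 immunoprecipitations made with 5 µg of a rabbit polyclonal antibody, and 2 were inputs, which were not analysed here. All 4 share the genotype. Whole animals were frozen, ground and crosslinked with EGS and formaldehyde, so germline and somatic nuclei were mixed. The growth protocol describes harvested animals as gravid, which the stage label does not. The fem-2 product, a protein phosphatase, acts in sex determination and promotes male fates, including sperm formation in hermaphrodites.

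REC-8 is a meiotic kleisin, the subunit that closes the cohesin ring around sister chromatids. It is part of the chromosome axis on which homologous chromosomes synapse and recombine, and its removal lets chromosomes separate in the meiotic divisions. Worm autosomes are divided into gene-dense centres with little recombination and arms that recombine often and are rich in repeats. The arms of chromosome V carry many members of large families such as chemoreceptor genes. The right arm also holds the region of the pairing centre, which the zinc finger protein ZIM-2 binds in meiosis, and the tandem array of 5S ribosomal RNA and SL1 RNA genes. Recombination was not measured in these libraries, so the name of the arms rests on their positions.

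Each list gives the position, the width and the authors' score of a peak. Read counts were not used here, so the depth behind a peak is unknown. Whether the replicates were grown separately is not stated, and their differences may be technical. With 2 replicates a two-sided sign-flip test cannot give a p below 0.5, so the differences below carry no test. Intervals are exact 95% intervals that treat peaks as independent counts, and they cover counting error only. The variance of combined peak numbers per 100 kb was 2.83 times the mean on the left arm, 3.51 on the right arm and 2.81 in the centre. Independent counts at an even density would have a variance near their mean, so the intervals are likely too narrow.

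Both arms together carried fewer peaks per Mb than the centre in all 3 lists. The combined list had 42.9 peaks per Mb on the arms (interval 39.0 to 47.1) and 54.0 in the centre (49.7 to 58.6). Replicate 1 had 16.4 peaks per Mb on the arms and 19.6 in the centre, from 169 and 209 peaks. Replicate 2 had 14.3 on the arms and 17.7 in the centre, from 147 and 188 peaks. The replicates thus averaged 15.4 ± 1.51 peaks per Mb on the arms and 18.6 ± 1.39 in the centre (SD, n = 2). The log2 ratio of arms to centre was -0.33 in the combined list, with an interval of -0.51 to -0.15. It was -0.25 in replicate 1 and -0.30 in replicate 2, and both of those intervals included 0. Taken singly in the combined list, the left arm had a log2 ratio to the centre of -0.55 (-0.79 to -0.33). The right arm there had -0.08 (-0.31 to 0.15), so it hardly differed from the centre. The left and right arm ratios were -0.21 and -0.32 in replicate 1, and -0.45 and -0.12 in replicate 2.

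The left arm was the sparser arm in the combined list and in replicate 2, but not in replicate 1. The combined list had 36.8 peaks per Mb on the left arm (32.1 to 42.0) and 51.2 on the right arm (44.7 to 58.4). The ratio of left to right was 0.718, a log2 ratio of -0.48 with an interval of -0.75 to -0.20. Replicate 2 had 12.9 and 16.2 peaks per Mb on the left and right arms, a log2 ratio of -0.33 (-0.82 to 0.15). Replicate 1 had 16.9 and 15.8, a log2 ratio of 0.10 (-0.35 to 0.57). The replicate mean of -0.11 ± 0.31 (SD, n = 2) was smaller than the spread between the replicates, so the replicates did not show which arm was denser. In base pairs covered, the left arm was lower in each list, with 1.87% covered on the left and 2.60% on the right in the combined list. The corresponding shares were 1.04% and 1.14% in replicate 1, and 2.52% and 2.90% in replicate 2. The order in replicate 1 rested on 2 wide right arm peaks that replicate 2 lacks. Without them replicate 1 covered 1.04% on the left arm and 0.888% on the right arm, and the combined list 1.87% and 2.36%.

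**Figure D1:**
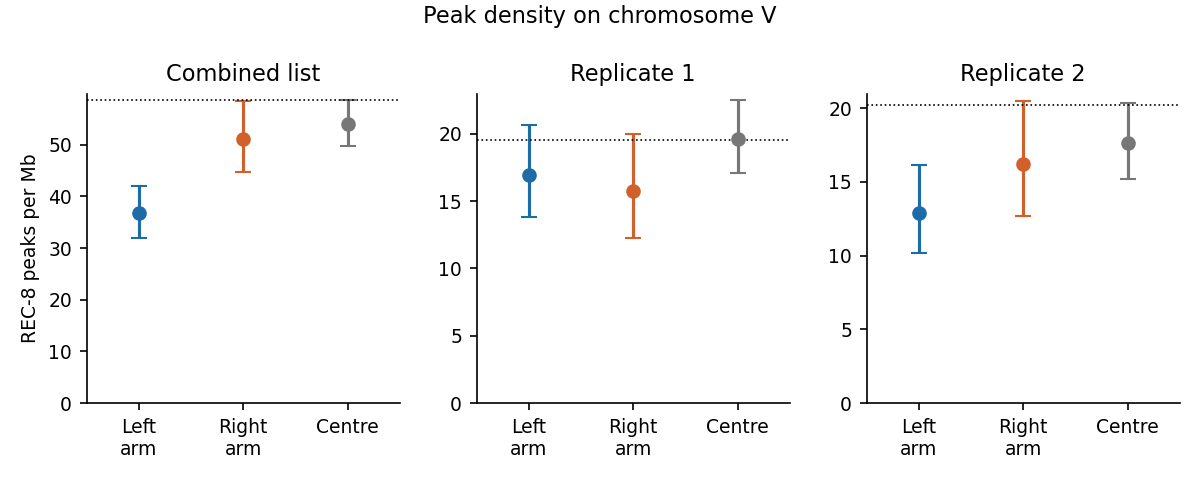
REC-8 peaks per Mb (vertical axis) on the left arm, right arm and centre of chromosome V in each list. Points are densities, bars are exact 95% Poisson intervals for counting error, and the dotted line is the density over all nuclear chromosomes. The left arm lies lowest in the combined list (36.8) and in replicate 2 (12.9), and the right arm lies lowest in replicate 1 (15.8).

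Peaks were spread unevenly along each arm, and the replicates placed their densest Mb of each arm in the same step, as did the combined list made in the same study, with a tie on the left arm. Distance was counted from the boundary between arm and centre toward the chromosome end. On the left arm, the first Mb from the boundary had 49 combined peaks and the second had 46. The next 2 Mb were sparse, with 22 and 27 combined peaks, 9 and 9 replicate 1 peaks, and 4 and 5 replicate 2 peaks. The Mb after them, from 900001 to 1900000, again had 49 combined peaks, with 28 in replicate 1 and 22 in replicate 2. The last 0.9 Mb of the left arm had 24 combined peaks, with 9 in replicate 1 and 8 in replicate 2. The left arm was therefore dense next to the centre and once more near the end, with a sparse stretch in between.

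The right arm had a single dense Mb, the third from the boundary. It runs from 18550001 to 19550000 and held 83 peaks of the combined list, 29 of replicate 1 and 28 of replicate 2. The Mb before it had 43 combined peaks and the Mb after it had 38. Each of these neighbours had 8 peaks in replicate 1 and 11 in replicate 2. The first Mb of the right arm was intermediate, with 47, 20 and 17 peaks in the combined list, replicate 1 and replicate 2.

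**Figure D2:**
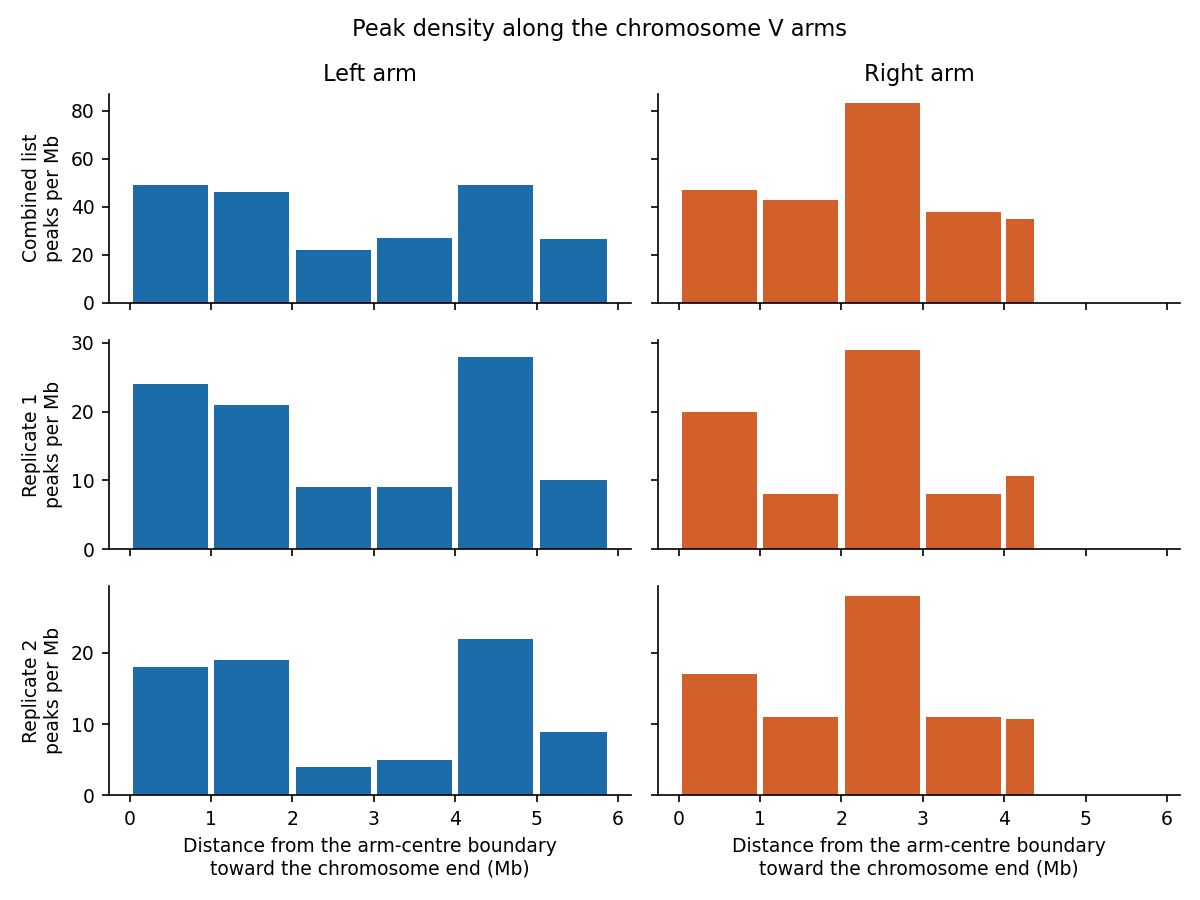
Peaks per Mb (vertical axis) in steps of 1 Mb along the left and right arms, plotted against the distance from the boundary with the centre, for the combined list and each replicate. The outermost step of each arm is shorter. The sparse stretch of the left arm (22 and 27 combined peaks) and the dense Mb of the right arm (83 combined peaks) are visible in all 3 rows.

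Counted in windows of 100 kb, the replicates also followed each other along both arms. Spearman's rho between the peak numbers of replicates 1 and 2 was 0.80 over the 59 windows of the left arm and 0.73 over the 45 windows of the right arm. It was 0.76 over the 107 windows of the centre. Neighbouring windows do not overlap but may not be independent, and both libraries came from the same antibody, so these coefficients are given as a description. Replicate 1 had no peak in 24 left arm windows, replicate 2 in 21, and 19 windows were empty in both. On the right arm 13 windows were empty in replicate 1, 10 in replicate 2 and 9 in both.

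The low density of the arms was set beside the ends of the other chromosomes, cut at the same fractions of their extent (28.2% on the left and 20.9% on the right). The chromosome V arms had 42.9 combined peaks per Mb, against 36.6 for the ends of X, and from 54.8 on chromosome II to 75.35 on chromosome III for the other autosomes. In replicate 1 the chromosome V arms had 16.4 peaks per Mb, against 15.2 for the ends of X and 19.9 to 25.5 for the other autosomes. In replicate 2 they had 14.3, against 11.8 for X and 20.8 to 27.3 for the other autosomes. They were thus sparser than the ends of every other autosome in all 3 lists, and denser than the ends of X. No test of this order was possible with 6 chromosomes of which V was picked. The centre of chromosome V was itself the sparsest autosomal centre in the combined list, at 54.0 peaks per Mb against 61.1 to 91.7. The same held in replicate 2, at 17.7 against 20.6 to 29.9. In replicate 1 the centre of chromosome IV was sparser, at 17.9 against 19.6. Low density was therefore not particular to the arms of chromosome V in the combined list and replicate 2. Ends sparser than the centre in each list were also found on chromosome I, with log2 ratios of -0.13, -0.26 and -0.13 in the combined list, replicate 1 and replicate 2, against -0.33, -0.25 and -0.30 on chromosome V.

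The highest-scored peaks lay more often on the left arm than on the right arm, although in the combined list the right arm had more peaks. A peak was counted as high-scored when it was among the highest 10% of the scores of all nuclear peaks in its list. In the combined list, 26 of 217 left arm peaks reached this limit of 62.0 (11.98%, interval 7.98 to 17.1%), against 11 of 224 right arm peaks (4.91%, 2.48 to 8.62%). Per Mb, that gave 4.41 high-scored peaks on the left arm and 2.51 on the right arm, both below the 6.10 of the centre. In both replicates the left arm also had the larger share, with wider intervals. In replicate 1, 12 of 100 left arm peaks and 6 of 69 right arm peaks were high-scored (12% and 8.70%). In replicate 2, 11 of 76 and 4 of 71 were (14.5% and 5.63%). The share in the centre was 11.3% in the combined list, 9.57% in replicate 1 and 14.9% in replicate 2. The left arm share was thus near that of the centre in the combined list and replicate 2. The right arm share was below that of the centre in each list. Per Mb, replicate 1 had 2.03 such peaks on the left arm and 1.37 on the right arm, with 1.88 in the centre. Replicate 2 had 1.86 and 0.914, with 2.63 in the centre, so the left arm lay below the centre in 2 of the 3 lists. Median scores were 8.63 on the left arm and 8.73 on the right arm in the combined list, and 155 and 157 in replicate 1. In replicate 2 the left arm median was the higher, at 407 against 262 on the right arm.

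**Figure D3:**
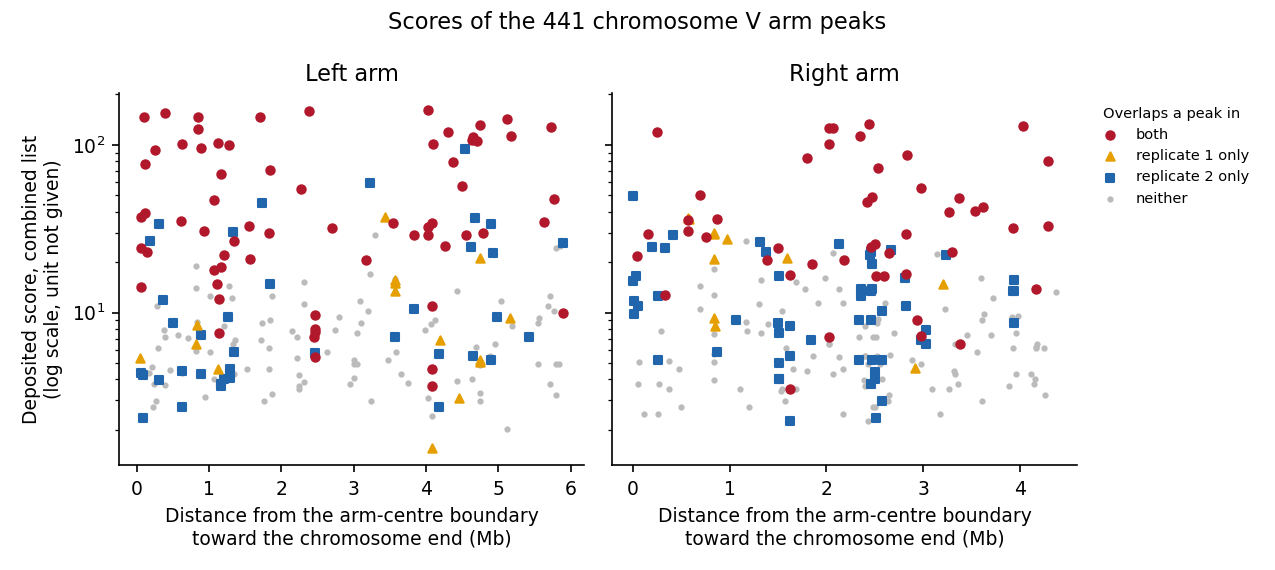
Deposited combined score (vertical axis, log scale, unit not given) of each of the 441 arm peaks against its distance from the boundary with the centre (horizontal axis, Mb). Colour and symbol show in which replicate lists the peak was found. The 26 high-scored peaks of the left arm and the 11 of the right arm form the upper part of each panel, and grey points, found in neither replicate, all lie below them.

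Of the arm peaks, 113 of 441 were called in both replicates (25.6%, interval 21.6 to 30.0%) and 209 of 441 in neither (47.4%, 42.7 to 52.2%). Over all nuclear peaks of the combined list the shares were 23.1% in both and 43.3% in neither. In the centre of chromosome V they were 25.2% and 41.0%. The share in both on the arms was therefore close to that of the whole list.

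Left arm peaks were found in replicate 1 more often than right arm peaks. Replicate 1 held 81 of 217 left arm peaks (37.3%) and 58 of 224 right arm peaks (25.9%), where 28.9% of all nuclear peaks were held. The difference of 11.4 percentage points had an interval of 2.45 to 20.2. Replicate 2 held 104 of 217 on the left (47.9%) and 102 of 224 on the right (45.5%), near the 50.9% of all nuclear peaks, with a difference of 2.39 points (-7.21 to 11.95). Both replicates held 66 left arm peaks (30.4%) and 47 right arm peaks (21.0%), a difference of 9.43 points (0.968 to 17.8). Replicate 2 alone held 38 left arm peaks (17.5%, 12.7 to 23.2%) and 55 right arm peaks (24.6%, 19.1 to 30.7%), where it alone held 27.8% of all nuclear peaks. Arm peaks of replicate 2 were wider than combined ones (medians of 1452 and 294 bp), so 1 of them could overlap several combined peaks. On both arms 206 combined peaks overlapped replicate 2, which had 147 peaks there. Combined peaks held by replicate 2 are therefore not separate places, and the intervals do not allow for this.

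The share of peaks in both replicates was higher in each higher group of scores on both arms. The part of the score in the difference between the arms was not tested. The scores of all combined peaks were cut into 4 groups of equal size. In the highest group, 51 of 67 left arm peaks (76.1%) and 35 of 57 right arm peaks (61.4%) were in both replicates. The intervals were 64.1 to 85.7% and 47.6 to 74.0%, and they overlapped. In the lowest group, 2 of 53 left arm peaks and 1 of 54 right arm peaks were in both. In the group next below the highest, replicate 2 held 14 of 48 left arm peaks (29.2%) and 32 of 62 right arm peaks (51.6%), the opposite order to the highest group, where it held 92.5% and 80.7%. Arm peaks called in both replicates reached median values of 32.8 for the combined score and 707 bp for the width. Those in neither had 5.64 and 207 bp, and the highest-scored of them, at 2600585 to 2600858 on the left arm, reached 29.1.

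**Figure D4:**
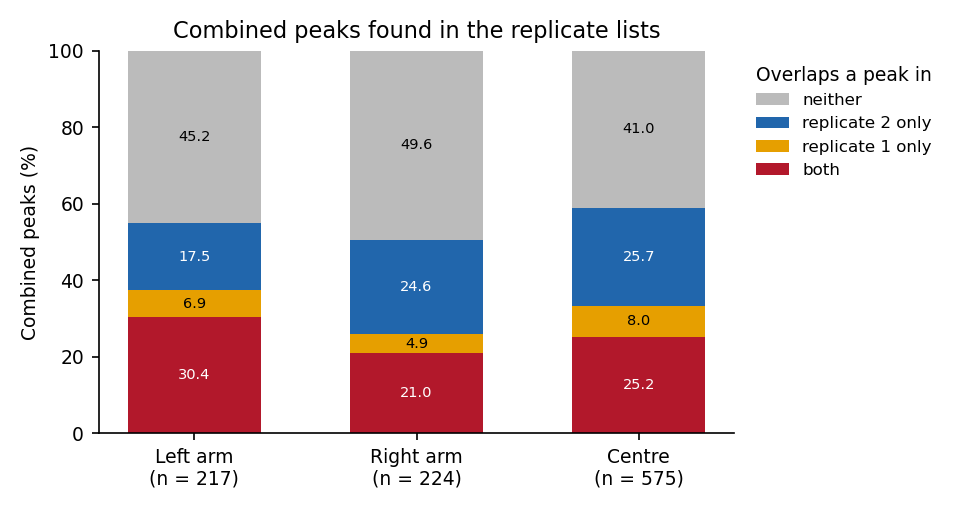
Share of the combined peaks (vertical axis, percent) of the left arm, right arm and centre that overlap by at least 1 bp a peak of both replicates, of 1 replicate only, or of neither. The part in both is 30.4% on the left arm and 21.0% on the right arm, with 25.2% in the centre.

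Read in the other direction, most replicate peaks of the arms were found in the other replicate. Of the replicate 1 peaks, 80 of 100 on the left arm (80.0%) and 54 of 69 on the right arm (78.3%) overlapped a replicate 2 peak, near the 80.9% of all nuclear peaks. Of the replicate 2 peaks, 55 of 76 on the left arm (72.4%) and 45 of 71 on the right arm (63.4%) overlapped a replicate 1 peak, where the share over all nuclear peaks was 58.7%. Both arms together had 68.0% (59.8 to 75.5%), close to the 67.6% of the chromosome V centre. The combined list held 159 of 169 replicate 1 arm peaks (94.1%) and 146 of 147 replicate 2 arm peaks (99.3%), against 97.1% and 99.8% of all nuclear peaks. The single missing replicate 2 peak, at 17428345 to 17429455, overlapped a replicate 1 peak that was also missing, so a place called in both replicates was absent from the combined list.

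At 77 places on the arms, a single replicate 1 peak matched a single replicate 2 peak, 41 on the left arm and 36 on the right arm. Their midpoints differed by a median of 51 bp on the left arm and 37.5 bp on the right arm. At all 77, the replicate 2 peak enclosed the one of replicate 1, and the median widths were 440 bp for replicate 1 and 1435 bp for replicate 2. Spearman's rho between the scores of the replicates was 0.68 on the left arm and 0.41 on the right arm, and 0.68 over 99 such places in the centre. These are descriptions across peaks of the same libraries. A further 14 replicate 2 peaks on the left arm and 9 on the right arm were split into several replicate 1 peaks.

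Widths hardly separated the arms. The median combined width was 301 bp on the left arm and 288 bp on the right arm, with 293 bp in the centre. In replicate 1 the medians were 382.5 and 444 bp, and in replicate 2 they were 1406 and 1522 bp. The left arm median was the narrower in both replicates, by a mean log2 ratio of -0.16 ± 0.07 (SD, n = 2), and the wider in the combined list, by 0.06. Peaks of 1 kb or more made up 25 of the left arm peaks (11.5%) and 20 of the right arm peaks (8.93%) in the combined list. Replicate 1 had the opposite order, with 12 of 100 on the left arm (12%) and 12 of 69 on the right arm (17.4%).

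Spacing differed in direction between the lists. Neighbouring combined midpoints were a median of 11.0 kb apart on the left arm and 6.93 kb on the right arm, with 7.36 kb in the centre. Replicate 2 had the same order, at 45.9 and 36.2 kb, and replicate 1 the opposite, at 15.7 and 27.0 kb. The mean log2 ratio of left to right over the replicates was -0.22 ± 0.80 (SD, n = 2), far smaller than its spread. In the combined list the log2 ratio was 0.67, and it turned to -0.33 with both boundaries moved 500 kb toward the middle. In replicate 1, 39 of 99 left arm neighbours (39.4%) and 17 of 68 right arm neighbours (25%) lay within 5 kb of each other. The centre lay between them, at 70 of 208 (33.7%). The left and right arm numbers were 7 of 75 and 7 of 70 in replicate 2. In the combined list they were 86 of 216 (39.8%) and 103 of 223 (46.2%). Replicate 2 peaks were wide, with a median of 1452 bp on the arms, and 0 of their neighbours on either arm lay within 1 kb. Its numbers are therefore not directly comparable with those of the other lists. Long distances of over 100 kb separated 11 of 216 combined neighbours on the left arm and 6 of 223 on the right arm.

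**Figure D5:**
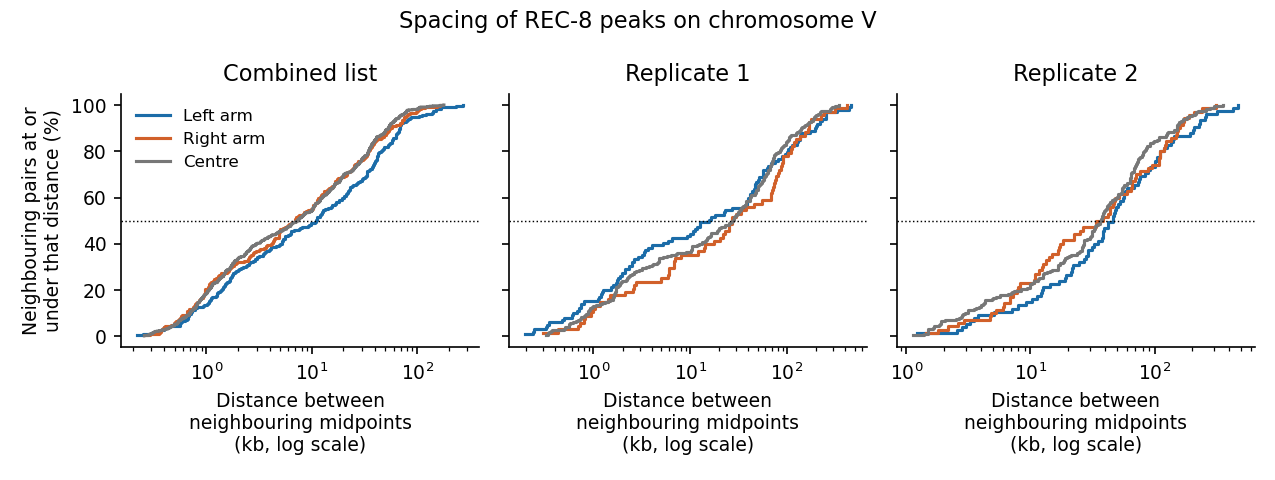
Share of neighbouring peaks (vertical axis, percent) whose midpoints lie at or under a given distance (horizontal axis, kb, log scale) on the left arm, right arm and centre, for each list. The dotted line marks the median. It is crossed at 11.0 kb by the left arm and at 6.93 kb by the right arm in the combined list, and at 15.7 and 27.0 kb in replicate 1.

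Crowded windows of the combined list lay mainly on the right arm. The fullest window of replicate 1 held 9 peaks on the left arm and 7 on the right arm. That of replicate 2 held 5 and 8. A window of 100 kb was called dense when it held at least 12 combined peaks. The left arm had 1 dense window of 59 and the right arm had 4 of 45, against 6 of 107 in the centre. With a limit of 15 peaks, 0 windows of the left arm and 1 of the right arm were dense, and the same numbers were found after merging peaks within 500 bp. Dense windows held 14 of the left arm peaks (6.45%) and 61 of the right arm peaks (27.2%). At the other extreme, 8 left arm windows and 1 right arm window had no combined peak. Among the empty left arm windows, those from 500001 to 700000 and from 3800001 to 4000000 adjoined each other in pairs.

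The densest window of the arms ran from 19000001 to 19100000 on the right arm, with 25 peaks in the combined list, 7 in replicate 1 and 8 in replicate 2. The windows on either side of it held 12 combined peaks each, which made 3 dense windows in a row. In the densest window 5 of the 25 peaks were in both replicates and 9 in neither, and the highest score was 72.5. The right arm window from 17300001 to 17400000 had 12 combined peaks and 7 replicate 1 peaks but 1 replicate 2 peak. On the left arm the densest window, from 1800001 to 1900000, had 14 combined, 9 replicate 1 and 5 replicate 2 peaks. It was followed by the window from 5000001, with 11, 7 and 3 peaks, and the window from 1100001, with 9, 6 and 3. The highest combined scores in these 3 left arm windows were 161, 146 and 131.

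Neighbours with gaps of up to 5 kb were chained into runs, and the runs with most peaks are named here. On the right arm, 11 combined peaks formed a run of 10.2 kb from 17384124 to 17394365, where replicate 1 had 6 peaks and replicate 2 had 0. A second right arm run of 8 peaks lay from 19021821 to 19034772, with 1 peak in each replicate. On the left arm, 8 peaks ran from 1804797 to 1813739, with 6 replicate 1 and 2 replicate 2 peaks, and 5 of the 8 were in both replicates. A run of 7 peaks from 1151177 to 1158595 met 4 replicate 1 peaks and a single replicate 2 peak. Runs of 5 or more peaks held 36 left arm peaks (16.6%) and 53 right arm peaks (23.7%), against 21.7% of the centre peaks.

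The longest stretch without a combined peak was 272 kb on the left arm, from 3757266 to 4028979, and 164 kb on the right arm, from 20270003 to 20433850. Both replicates had 0 peaks in either stretch. The longest stretch of replicate 1 on the left arm, 454 kb from 267320 to 721739, held 1 replicate 2 peak and 5 combined peaks. That of replicate 2 on the left arm, 473 kb from 2731217 to 3204125, held 2 replicate 1 peaks and 10 combined peaks. On the right arm, replicate 1 had none for 416 kb from 17519415 to 17935781, where replicate 2 had 4 peaks and the combined list 13. Replicate 2 had none for 313 kb from 20165249 to 20478714, where replicate 1 had none either but the combined list had 6.

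Among the peaks found in both replicates, the 5 highest-scored of the left arm ranked from 17 to 69 among the 5889 nuclear peaks. The highest, 662 bp wide at 1868398 to 1869059, scored 161 in the combined list, 1084 in replicate 1 and 1669 in replicate 2. The next, at 3520036 to 3522125, was 2090 bp wide and scored 159, with 3 peaks in replicate 1 and a single replicate 2 peak that scored 3100. It lay in the sparse stretch of the left arm. The other 3 lay at 5504850 to 5505540, 5790534 to 5791539 and 4194642 to 4195606, and scored 156, 147 and 146.

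The 5 highest-scored of the right arm ranked lower, from 142 to 233. They scored 134 at 18990100 to 18990806, 129 at 20580284 to 20581019, 127 at 18618812 to 18619786, 127 at 18572761 to 18574069 and 119 at 16794757 to 16795582. Of these, 3 lay in the dense Mb of the right arm, none of them in its densest window. The peak at 18618812 scored 1678 in replicate 1 and 3100 in replicate 2, the highest replicate scores of these 5 being 2472 in replicate 1, for its neighbour at 18572761, and this 3100 in replicate 2.

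The widest peaks set the arms apart in their sharing. On the right arm, the widest peak spanned 6.66 kb at 17119929 to 17126591 and the next spanned 3.97 kb at 17128152 to 17132118. Both matched replicate 1 peaks that scored 3100, and replicate 2 had no peak at either. Their combined scores of 36.5 and 36.0 ranked 902 and 915. The 5S ribosomal RNA and SL1 RNA array also lies on this arm, but an annotation of WS220 was not used here, so whether these peaks lie in it was not determined. The inputs, which would show background there, were not analysed here. Of the 11 right arm peaks found in replicate 1 only, 8 lay within 400 kb from 17119929 to 17519440, a stretch singled out after its values were seen. That stretch held 20 combined peaks, of which 3 were in both replicates, 1 in replicate 2 only and 8 in neither.

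The widest peaks of the left arm were found in both replicates. The widest, 4.53 kb at 723680 to 728209, scored 113 in the combined list and 3100 in each replicate. Peaks of 3.48 kb at 4333163 to 4336642 and 2.69 kb at 5283182 to 5285876 had lower combined scores, 20.9 and 35.4. The peak at 5283182 scored 1895 in replicate 1 and 1897 in replicate 2. The third widest of the right arm, 3.05 kb at 16592048 to 16595101, was also in both replicates, with scores of 1053 and 839.

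At the chromosome ends, the left arm began with a peak in every list. The combined peak from 1 to 346 scored 9.89, the replicate 1 peak there scored 354 and the replicate 2 peak 239. The last combined peak of the right arm, at 20923818 to 20924180, scored 13.2 and was in neither replicate. The last replicate peaks ended at 20846009 in replicate 1 and 20846393 in replicate 2, both about 78 kb before it. At the limits of the arms, the last left arm peak, at 5845824 to 5846070, scored 5.38 and the first centre peak, at 5991750 to 5991915, scored 3.44. The first right arm peak, at 16552597 to 16552826, scored 15.4. The centre peak just before it, at 16547200 to 16548904, scored 155 and had a score of 3100 in both replicates, so a strong peak lay directly outside the right limit.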

How the data were processed

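Per the submitters' processing notes, BWA was used with genome build ce10. Peak positions follow WormBase WS220, per the file headers. The authors deposited a list for each ChIP replicate, made with MACS, and a combined list, made with MACS v2, as the lists' source column names them. Each peak has a deposited score from the caller. Its scale, the filters, the use of inputs and the way replicates were combined are not stated in those sources, so scores were compared only within a list. Peak number and width depend on depth and assumed fragment length, neither of which is known.

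Arms were assigned by peak midpoint. The end of chromosome V was taken as the largest peak end of the 3 lists, 20924180. An overlap of 1 bp or more made a peak shared. Windows of 100 kb were counted from base 1, so the first and last windows of the right arm are shorter. Spacing is the distance between neighbouring midpoints within an arm. Intervals are exact binomial for shares, exact Poisson for densities and exact conditional binomial for ratios of densities. Those of differences of shares combine the exact intervals of both shares. Python 3.11.15, numpy 2.4.6, pandas 2.3.3, scipy 1.17.1 and matplotlib 3.10.9 were used, and the functions were tested on simulated data.

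Peaks named were, in each arm, the 5 highest-scored found in both replicates, the 3 widest, the first and last, and those next to each boundary. Also named in each arm were the 3 densest windows, the 2 runs with most peaks and the longest gaps. The members, comparisons and lists were chosen with earlier results of these data known. Genes and sequences were not used, because the gene table given is on WBcel235 and the peaks on WS220.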

Additional observations from a re-analysis of the deposited data

How the results depend on the processing

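Of 91 alternative values for 15 results, 74 stayed within the spread of the value reported (the interval, or 1 SD of the replicates), or within 1.5 times a count. The 74 include all values with a replicate left out. With n = 2 such a value always lies within 1 SD of the mean, so these say nothing about stability. The log2 ratio of arms to centre stayed negative in all alternatives. In the replicates, whose SD was small, it moved to -0.35 in the higher-scored 50% of peaks, -0.24 without the outermost 500 kb, -0.35 with boundaries 500 kb nearer the ends, -0.13 with boundaries 500 kb nearer the middle and -0.35 in base pairs covered. The combined left to right density stayed negative in all 8 alternatives, from -0.55 to -0.22. One of them, base pairs without the 2 widest right arm peaks, was added after the data were seen (-0.33). The replicate left to right ratio changed sign, at 0.036 in the higher-scored 50%, 0.088 with boundaries nearer the middle and 0.011 in base pairs without the 2 replicate 1 peaks that match those (also added after the data were seen). The cause was not tested for these or the following shifts. The left to right width ratio moved to -0.049 in the combined list with the higher-scored 50%. In the replicates it moved to -0.034 with the higher-scored 50%, -0.079 with peaks within 500 bp merged and -0.062 with boundaries nearer the middle. The combined spacing ratio, 0.67, was -0.33 with boundaries nearer the middle. The replicate spacing ratio, -0.22, was 0.060 with peaks within 500 bp merged. The left minus right difference in the share held by replicate 2, 2.39 points, was -0.63 with midpoints within 500 bp. Dense windows numbered 2 on the left arm in the higher-scored 50% (at least 6 peaks), 2 with at least 10 peaks, 0 with at least 15 and 0 after merging, and 1 on the right arm with at least 15 and 1 after merging. With midpoints within 500 bp, 56.2% of replicate 1 arm peaks were shared. With a replicate left out, the left to right density ran from -0.33 (without replicate 1) to 0.10 (without replicate 2), arms to centre from -0.30 to -0.25, width from -0.22 to -0.11 and spacing from -0.78 (without replicate 2) to 0.34 (without replicate 1). ChIP and input share replicate numbers, but no paired analysis was possible because the files used here hold no input values. With the depth unknown, a place without a peak cannot be read as lacking REC-8.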
